A study of Homo sapiens with 6 samples.

Results

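The Wnt signalling genes of HT1080 cells, an established human fibrosarcoma line, were followed in libraries with intact PGK1 and with PGK1 knocked out. The genes were taken by symbol from the deposited count table: the WNT ligands, the Frizzled receptors, the DKK and SFRP antagonists, the Dishevelled adaptors, the LGR receptors, the TCF/LEF factors and 18 named genes of secretion, reception and beta-catenin turnover. Of 20610 symbols in the table, 64 met this rule, and 43 of these held at least 10 counts in 3 or more of the 6 libraries. SFRP3 was not in the table under that symbol, and the other 21 genes lay under the minimum. The groups were wild type (WT, n = 3) and PGK1 knockout (KO, n = 3), made with CRISPR-Cas9, with no drug or other allele in the labels. PGK1 is a glycolytic kinase that makes ATP. The labels give neither the edited site nor whether the KO cells were 1 clone or a pool, and 1 batch label covers all 6 libraries. Whether the 3 libraries of a group were separate cultures is not stated either, so the p-values measure only how far these libraries spread, and that spread may be technical.

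Wnt proteins are lipid-modified secreted ligands: PORCN attaches the lipid, WLS carries the ligand to the cell surface, and Frizzled receptors with LRP5 or LRP6 receive it. In the branch through beta-catenin, Dishevelled relays the signal and a complex of APC, AXIN and GSK3 stops degrading beta-catenin, which then acts with TCF/LEF factors on target genes. Other branches use Frizzled with ROR or RYK receptors and act on cell polarity and calcium, and WNT5A and WNT5B are best known for these in mesenchymal cells.

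PGK1 itself stood at 1407 to 1447 CPM in WT and 149 to 165 CPM in KO, which left 10.9% of the WT level. CPM are counts brought to a common library total, here after TMM factors that correct for the make-up of each library. The totals ran from 30175903 to 47047186 counts, so that 1 count stood for 0.0209 to 0.0315 CPM. Libraries of 1 group correlated at 0.992 to 0.997 on log2 CPM and libraries of different groups at 0.927 to 0.930. Replicate 3 of KO was the furthest from its group. Scaling by library size alone moved the median log2 fold change of all genes by 0.22 towards KO, so small changes below depend on the scaling. Of the mesenchymal markers of a fibrosarcoma, VIM, FN1, SPARC and COL6A3 were abundant in WT, COL1A1 and S100A4 lay under 2 CPM in both groups, and COL1A2, COL3A1, THY1 and FAP were at or near 0. EPCAM had no count in any library.

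To show the DNA on which the TCF/LEF factors could act, RefSeq promoter windows of GRCh38.p14, from 250 bases before to 50 bases after the annotated start, were searched for CTTTGAT and CTTTGAA on both strands. A window was given for 32 of the 43 genes. DKK1 was the 1 gene of these with a match (3.13%). The share was 4.12% over the 10373 windows of genes tested here and 6.98% over all 27305 windows. The 250 bases before the start are printed for DKK1, whose match stands in capitals at position -95, at chr10:52314031-52314280. Those of WNT5B (chr12:1616806-1617055) and APC (chr5:112707248-112707497) follow, as the genes with the largest fall and the largest rise among those at 1 CPM or more, and hold no match. All 3 lie on the plus strand, and a match describes letters, not a site in use.
DKK1: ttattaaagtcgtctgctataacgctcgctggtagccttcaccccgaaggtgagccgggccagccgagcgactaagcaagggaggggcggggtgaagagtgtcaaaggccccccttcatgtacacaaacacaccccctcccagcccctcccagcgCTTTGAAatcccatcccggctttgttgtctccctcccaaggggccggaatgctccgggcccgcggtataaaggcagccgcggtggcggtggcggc
WNT5B: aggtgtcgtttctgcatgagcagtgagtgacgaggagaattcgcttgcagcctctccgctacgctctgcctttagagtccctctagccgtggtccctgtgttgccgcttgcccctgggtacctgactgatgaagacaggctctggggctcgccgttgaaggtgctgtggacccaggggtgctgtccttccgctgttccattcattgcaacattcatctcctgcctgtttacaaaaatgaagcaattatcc
APC: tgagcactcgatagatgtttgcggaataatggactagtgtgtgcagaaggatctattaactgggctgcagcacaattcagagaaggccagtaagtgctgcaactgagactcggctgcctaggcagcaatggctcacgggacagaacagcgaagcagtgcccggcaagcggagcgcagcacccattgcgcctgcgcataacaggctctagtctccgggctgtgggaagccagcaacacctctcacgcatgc

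Counts were compared between KO and WT with edgeR's quasi-likelihood F-test over all 13249 genes that passed its filter, with Benjamini-Hochberg adjusted p under 0.05 as the threshold for a call. Of the 43 Wnt genes, 28 were called (65.1%), beside 76.4% of all genes tested. Higher in KO were 12, beside 40% of all genes, and lower were 16, beside 36.3%. A log2 fold change of at least 1 in either direction was reached by 17 of them (39.5%), 6 higher and 11 lower, beside 31% of all genes. For falls of this size the share was 25.6%, beside 15.5% of all genes. In 32 (74.4%) the libraries of the groups did not overlap, beside 79.2% of all genes. The median log2 fold change was -0.01 against 0.05 over all genes. The share of calls lay under that of all genes and the share of large falls above it, and neither difference was tested or is read as particular to the Wnt genes; the results below are about which of them rose and which fell. With scaling by library size alone the split turned to 22 higher and 14 lower. Of the 43 genes, 37 held at least 10 counts in every library. WNT4, WNT9A, NKD2 and TCF7 met the minimum through 1 group only, so their raw counts had to differ between the groups, whether or not they were called.

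**Figure D1:**
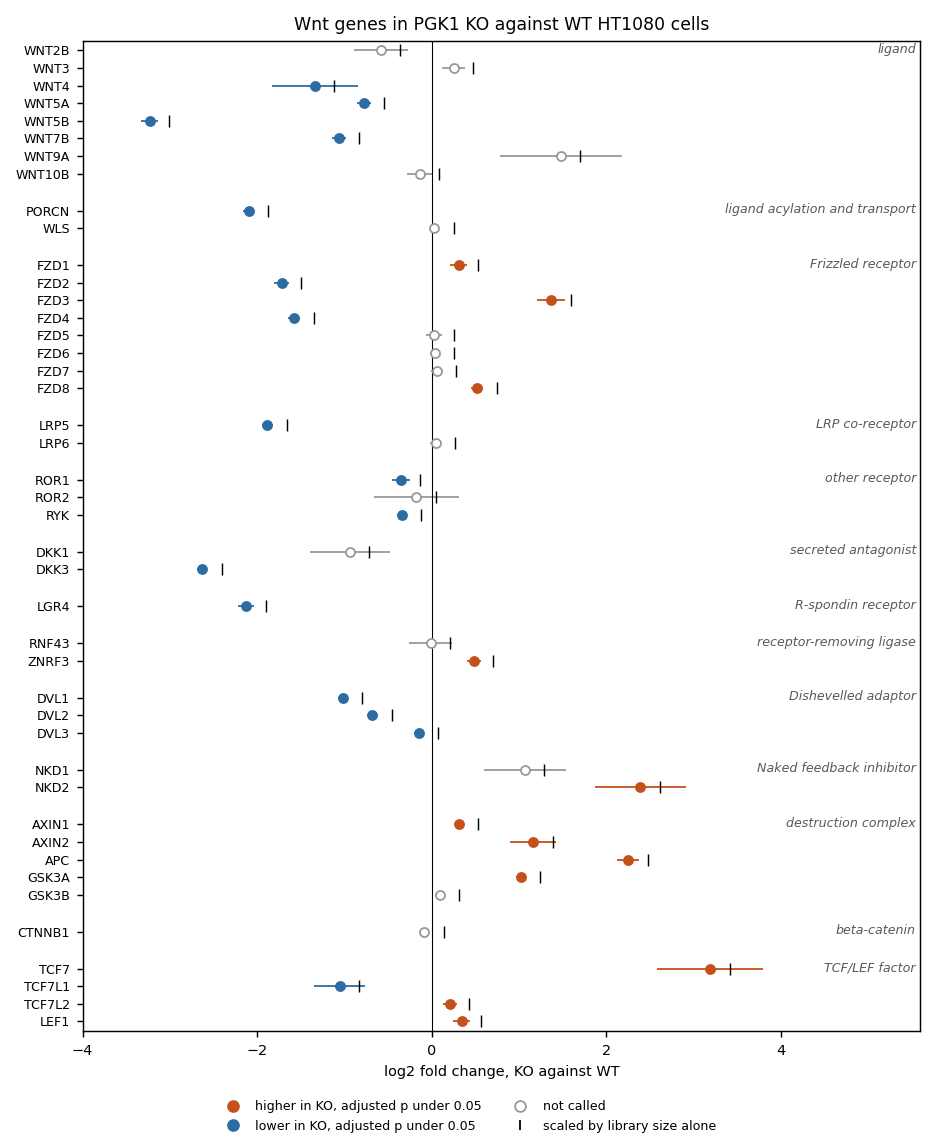
Log2 fold change (KO against WT) of the 43 Wnt genes, ordered by role, with bars of 1 standard error; filled points were called higher (orange) or lower (blue) and open grey points were not called. Black ticks give the value scaled by library size alone, and the points reach from -3.23 for WNT5B to 3.19 for TCF7.

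Among the ligands, 4 of 8 were called lower, beside 36.3% of all genes, a difference that was not tested. WNT5B, the most abundant ligand of WT cells per transcript length, fell furthest. No ligand was called higher by edgeR, beside 40% of all genes, and none by DESeq2 or at an unadjusted p under 0.05. Limma voom called 1 higher and scaling by library size alone 2. WNT5B (chr12:1617056-1647212) stood at 82.1, 77.9 and 78.3 CPM in the WT libraries and at 7.10, 8.86 and 9.57 CPM in the KO libraries. All KO libraries lay far below all WT libraries. The level in KO was 10.6% of that in WT (log2 fold change -3.23, standard error 0.09, adjusted p = 5.17e-13). WNT7B (chr22:45920366-45977162), a ligand that can act through beta-catenin, stood at 54.5, 51.8 and 51.6 CPM in WT and at 25.4, 22.5 and 28.0 CPM in KO. The groups did not overlap, and the log2 fold change was -1.06 (standard error 0.08, adjusted p = 1.22e-08). WNT5A, the close relative of WNT5B, fell less, from 30.9 ± 1.52 to 18.1 ± 0.930 CPM (SD, n = 3 per group), with a log2 fold change of -0.77 (standard error 0.08, adjusted p = 3.67e-07).

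In every library the remaining ligands held fewer counts than WNT5A. WNT4 held 17, 20 and 15 counts in WT and 9, 5 and 6 in KO; it was called lower (log2 fold change -1.34, adjusted p = 0.0222), but the call was lost under 7 of 18 alternatives. WNT3 held 7.15 ± 0.732 CPM in WT and 8.51 ± 0.754 CPM in KO, with overlapping libraries and adjusted p = 0.0974. WNT10B, at 7.65 ± 0.262 and 6.97 ± 1.21 CPM, overlapped as well and had adjusted p = 0.395. WNT2B (adjusted p = 0.101) and WNT9A (adjusted p = 0.0674, counts of 8, 8 and 0 in WT and 12, 15 and 16 in KO) were not called. Exons of WNT2B overlap on the opposite strand with those of ST7L, which held more counts (10.6 CPM in WT and 12.8 CPM in KO). WNT1, WNT2, WNT3A, WNT6, WNT7A, WNT8B, WNT9B, WNT10A and WNT16 were under the minimum, with at most 12 counts in a library, and WNT8A and WNT11 had no count.

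The order of the ligands differed between the groups. Levels of different genes are compared per transcript length, as the deposited FPKM (counts divided by gene length and library total), which carry no TMM factor. In WT the order of FPKM was WNT5B (32.0 ± 0.801), WNT7B (12.8 ± 0.337), WNT5A (3.91 ± 0.192), WNT10B (3.05 ± 0.0975) and WNT3 (1.97 ± 0.203), and no neighbours overlapped. In KO, WNT7B led with 7.18 ± 0.636 FPKM, while WNT5B (4.001 ± 0.546), WNT10B (3.23 ± 0.489), WNT3 (2.74 ± 0.296) and WNT5A (2.67 ± 0.0937) each overlapped their neighbour. WNT7B, second in WT, thus came first in KO without overlap.

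**Figure D2:**
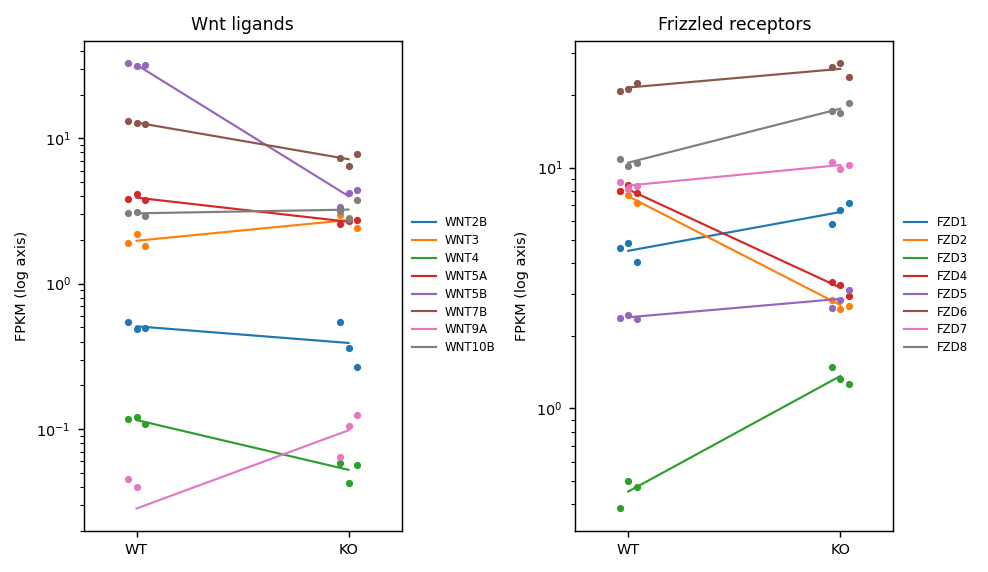
FPKM on a log axis of the 8 tested Wnt ligands (left) and 8 Frizzled receptors (right) in WT and KO; points are single libraries and lines join the group means. WNT9A was at 0 in WT replicate 3, which a log axis cannot show; WNT5B drops from the first place of the ligands, and FZD6 and FZD8 stay the 2 most abundant Frizzleds.

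As a share of all ligand FPKM in a library, which does not depend on the scaling between libraries, WNT5B made up 58.9%, 57.9% and 59.1% in WT and 16.7%, 21.1% and 20.2% in KO. WNT7B took 23.5 ± 0.196% in WT and 34.7 ± 1.96% in KO. WNT10B went from 5.58 ± 0.142% to 15.6 ± 1.67%, and WNT3 from 3.61 ± 0.374% to 13.3 ± 1.96%. None of these 4 shares overlapped between the groups, and each had p = 0.1 in the exact two-sided permutation test, the smallest p that 3 against 3 libraries allow, so no share could pass the threshold with or without adjustment. The summed ligand level was 54.6 ± 1.17 FPKM in WT and 20.7 ± 0.951 FPKM in KO, so WNT3 and WNT10B, which were not called in the count test, made up a larger share of a smaller sum.

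Of the secretion genes, the enzyme was lower and the carrier was not called. PORCN (chrX:48508992-48520814), which attaches the lipid that Wnt ligands need, stood at 89.8, 90.2 and 84.6 CPM in WT and at 21.3, 18.8 and 21.8 CPM in KO. The KO libraries lay close together and all below WT. This was 23.4% of the WT level, a log2 fold change of -2.10 (standard error 0.07, adjusted p = 1.77e-12). WLS, the carrier, held 127 ± 2.28 CPM in WT and 130 ± 8.28 CPM in KO, with overlapping libraries and adjusted p = 0.619.

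The Frizzled receptors split: FZD2 and FZD4 fell, FZD1, FZD3 and FZD8 rose, and FZD5, FZD6 and FZD7 were not called. FZD2 (chr17:44557484-44561262) stood at 33.1, 31.8 and 29.2 CPM in WT and at 9.83, 8.99 and 9.70 CPM in KO. The groups were well apart, with a log2 fold change of -1.72 (standard error 0.09, adjusted p = 1.39e-10). FZD4 (chr11:86945679-86955395), which is also the receptor of norrin, stood at 64.4, 67.6 and 62.4 CPM in WT and at 22.7, 21.9 and 20.5 CPM in KO. Again no KO library came near WT, and the log2 fold change was -1.58 (standard error 0.07, adjusted p = 2.59e-11). PRSS23, a protease gene whose exons overlap those of FZD4 on the opposite strand, held far more counts and fell too (860.5 to 125.6 CPM, log2 fold change -2.78). Without the strand setting of the counting, which the sources used here do not give, reads of the pair cannot be told apart.

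FZD3 (chr8:28494212-28574258), a receptor of the planar polarity branch, stood at 2.58, 3.32 and 3.14 CPM in WT and at 8.41, 7.49 and 7.43 CPM in KO. All KO libraries were above all WT libraries, with a log2 fold change of 1.37 (standard error 0.16, adjusted p = 1.47e-06). FZD8 rose from 36.1 ± 1.21 to 51.8 ± 3.97 CPM (log2 fold change 0.52, adjusted p = 7.85e-06). FZD1 was called higher, from 21.2 ± 1.92 to 26.4 ± 3.02 CPM (log2 fold change 0.31, adjusted p = 0.00974), but the call was lost without WT replicate 3 (adjusted p = 0.0689) or KO replicate 3 (adjusted p = 0.0548). FZD6 (82.8 ± 3.24 and 84.7 ± 3.83 CPM), FZD7 (35.04 ± 1.21 and 36.5 ± 1.56 CPM) and FZD5 (20.0 ± 0.384 and 20.5 ± 2.23 CPM) overlapped between the groups. FZD9 and FZD10 had no count.

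Per length, FZD6 and FZD8 led the Frizzleds in both groups, at 21.5 ± 0.915 and 10.5 ± 0.312 FPKM in WT and 25.7 ± 1.71 and 17.6 ± 0.939 FPKM in KO. FZD7, FZD4 and FZD2 followed in WT and overlapped with their neighbours. In KO, FZD4 and FZD2 lay below FZD1 and overlapped with FZD5. The family's summed level was 63.4 ± 0.226 FPKM in WT and 70.1 ± 0.370 FPKM in KO, without overlap. With the TMM factors the order turned, to 291 to 296 CPM in WT and 255 to 265 CPM in KO. The shares of FZD2 and FZD4 in the family's FPKM went from 12.0 ± 0.674% to 3.84 ± 0.178% and from 12.8 ± 0.4995% to 4.53 ± 0.309%.

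LRP5 and LRP6, the paired co-receptors of the beta-catenin branch, differed. LRP5 (chr11:68298412-68449275) stood at 98.0, 92.3 and 95.8 CPM in WT and at 24.5, 25.9 and 27.3 CPM in KO. The KO libraries were all low, with a log2 fold change of -1.88 (standard error 0.06, adjusted p = 1.91e-12). LRP6 (chr12:12116025-12267044) stood at 54.9, 57.1 and 59.3 CPM in WT and at 56.4, 61.9 and 58.4 CPM in KO. These overlapped, and the log2 fold change of 0.04 (standard error 0.06) was not called (adjusted p = 0.528). LRP5 accounted for 78.8%, 77.1% and 77.1% of the pair's FPKM in WT and for 47.5%, 46.6% and 49.4% in KO (exact two-sided permutation p = 0.1, the smallest possible), and LRP6 lay above LRP5 per length in KO, at 6.51 ± 0.376 against 5.97 ± 0.231 FPKM.

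The ROR and RYK receptors of the other branches moved less than LRP5. RYK fell from 132 ± 3.06 to 104 ± 2.55 CPM (log2 fold change -0.35, SE 0.05, adjusted p = 1.72e-05). ROR1 fell from 15.8 ± 1.41 to 12.4 ± 1.08 CPM (log2 fold change -0.35, adjusted p = 0.00632), a call that was lost under scaling by library size alone (adjusted p = 0.247). ROR2 held 8 to 14 counts per library and was not called.

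**Figure D3:**
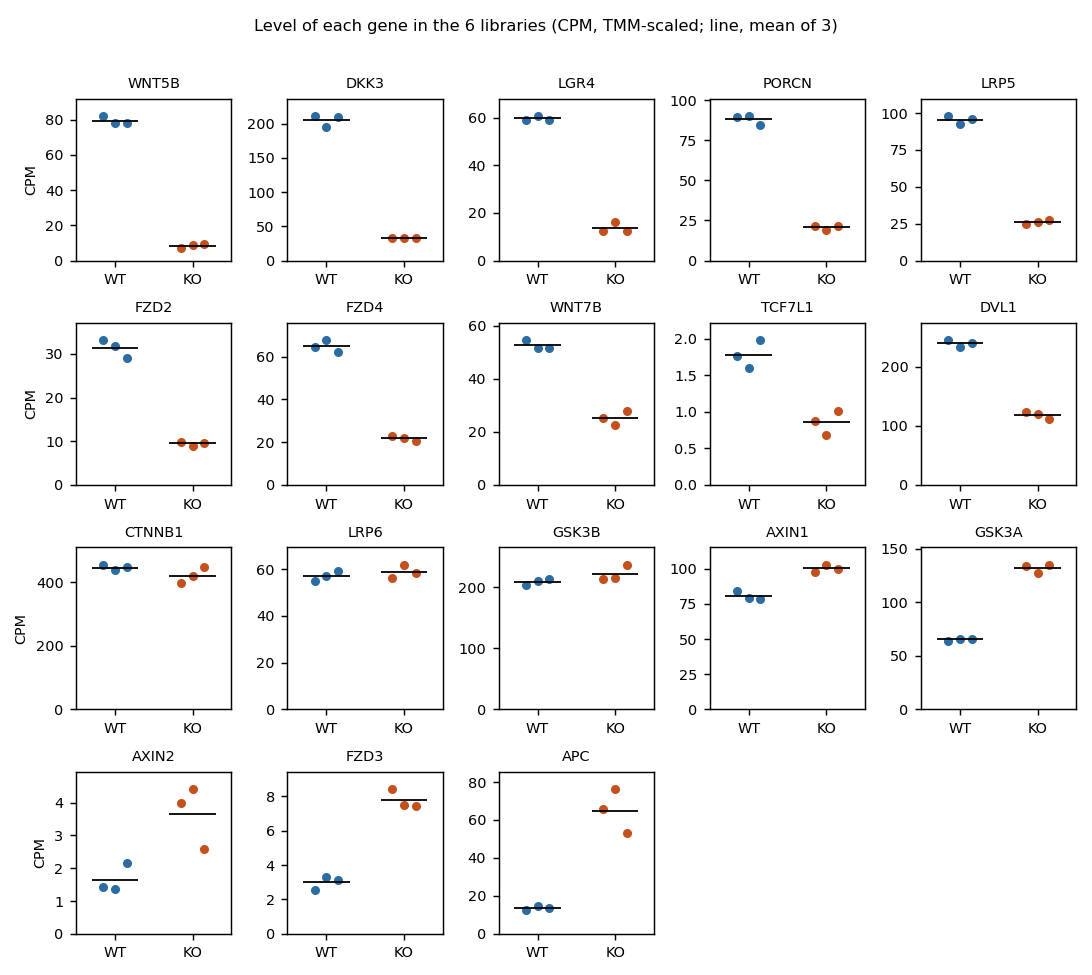
CPM in each of the 6 libraries (points, WT blue and KO orange) with the mean of 3 (line) for the 18 Wnt genes given library by library, ordered by log2 fold change; each axis starts at 0. The groups are apart in all but CTNNB1 and LRP6, and in GSK3B they nearly touch.

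Of the secreted antagonists, DKK3 was the abundant one, at 80.9 ± 3.19 FPKM in WT against 0.246 ± 0.0489 FPKM for DKK1, and it fell. DKK3 (chr11:11963036-12009745), a member of the Dickkopf family whose place in Wnt signalling is less clear than that of DKK1, stood at 211, 196 and 209 CPM in WT and at 32.8, 33.0 and 33.6 CPM in KO. The KO libraries were almost alike and all below WT, at 16.1% of its level (log2 fold change -2.63, SE 0.06, adjusted p = 1.45e-14). DKK1, which blocks LRP5 and LRP6 and whose promoter letters are printed above, held 22, 17 and 20 counts in WT and 10, 12 and 8 in KO. These did not overlap, but the difference was not called (log2 fold change -0.94, SE 0.46, adjusted p = 0.0751). SFRP1, which binds Wnt ligands, was under the minimum with 12, 13 and 7 counts in WT and 9, 0 and 0 in KO, a ratio of KO to WT of 0.286 (exact 95% interval 0.120 to 0.613, which covers counting error only). SFRP2, SFRP4 and SFRP5 had no count. DKK2 held at most 6 counts in a library, and so did DKK4, which had none in WT.

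LGR4 and ZNRF3, which act on Frizzled turnover, moved in opposite directions. LGR4 (chr11:27365961-27472790), a receptor for R-spondins that protects Frizzleds from removal, stood at 59.3, 60.8 and 59.2 CPM in WT and at 12.4, 16.1 and 12.5 CPM in KO. All KO libraries were below all WT libraries, with a log2 fold change of -2.13 (standard error 0.09, adjusted p = 3.66e-11). ZNRF3, the ubiquitin ligase that removes Frizzleds, rose from 22.1 ± 1.98 to 30.9 ± 1.01 CPM (log2 fold change 0.48, SE 0.08, adjusted p = 7.39e-05). RNF43, its relative, held 1.77 ± 0.239 and 1.76 ± 0.113 CPM and was not called (adjusted p = 0.965). It shares exons on the same strand with SUPT4H1, which held far more counts and rose (63.3 to 131.2 CPM, log2 fold change 1.05). How the counting treated reads of this pair is not known. LGR5 held 1, 1 and 5 counts in WT and 8, 3 and 12 in KO, and LGR6 at most 2.

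All 3 Dishevelled adaptors were called lower, to different degrees, beside 36.3% of all genes called lower. DVL1 (chr1:1335278-1349418) stood at 244, 234 and 239 CPM in WT and at 123, 120 and 111 CPM in KO. No library overlapped, with a log2 fold change of -1.02 (standard error 0.05, adjusted p = 2.16e-10). DVL2 fell from 96.1 ± 4.33 to 59.9 ± 2.88 CPM (log2 fold change -0.68, adjusted p = 7.12e-08). DVL3 was called lower by a small step, from 164 ± 6.63 to 148 ± 4.28 CPM (log2 fold change -0.15, adjusted p = 0.0169), but under scaling by library size alone it was 0.08 higher and not called. In shares of the family's FPKM, DVL1 went from 54.8 ± 0.386% to 43.8 ± 0.502% and DVL3 from 23.3 ± 0.4999% to 34.0 ± 0.544%, without overlap. DVL1 shares exon sequence on the opposite strand with TAS1R3, which rose from at most 12 counts per WT library to 140 to 207 counts per KO library, and DVL1 also has a near-identical pseudogene copy, so its counts are less certain.

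The Naked proteins bind Dishevelled and limit the signal. NKD2 held 8, 6 and 2 counts in WT and 44, 25 and 17 in KO and was called higher (log2 fold change 2.39, SE 0.52, adjusted p = 0.000733). NKD1 held 18, 12 and 48 counts in WT and 75, 59 and 34 in KO. Its groups overlapped through WT replicate 3 and KO replicate 3, and it was not called (adjusted p = 0.0542). It was called higher under 8 of 19 alternatives, among them DESeq2 (adjusted p = 0.0499) and limma voom (adjusted p = 0.0166). Without WT replicate 3, edgeR called it with a log2 fold change of 1.92 (adjusted p = 0.00132).

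In the destruction complex, which marks beta-catenin for degradation, 4 of 5 genes were called higher, beside 40% of all genes. None was lower by edgeR, by DESeq2 or at an unadjusted p under 0.05, beside 36.3% of all genes called lower by edgeR. With so few genes, the difference from all genes was not tested and is not read as a result about the complex. APC (chr5:112707498-112846239), the tumour suppressor that holds the complex together, stood at 12.5, 14.7 and 13.8 CPM in WT and at 65.6, 76.2 and 53.0 CPM in KO. The lowest KO library was still far above the highest WT library. The log2 fold change was 2.25 (standard error 0.13, adjusted p = 9.14e-08). GSK3A (chr19:42230190-42242602), a kinase of the complex, stood at 64.1, 66.1 and 65.8 CPM in WT and at 134, 128 and 135 CPM in KO. The groups were well apart, with a log2 fold change of 1.02 (standard error 0.05, adjusted p = 1.76e-10). APC, GSK3A and AXIN2 each share exons with another gene model on the same strand of the GENCODE annotation, and how the counting treated such reads is not known.

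GSK3B (chr3:119821321-120094447), the second kinase, stood at 203, 210 and 213 CPM in WT and at 214, 216 and 237 CPM in KO. The groups lay next to each other without overlap, and the log2 fold change of 0.09 (standard error 0.05) was not called (adjusted p = 0.140). GSK3B was called higher under 4 of 19 alternatives, among them library size alone, and its sign turned under 2. Per length, GSK3A and GSK3B were level in WT, at 27.7 ± 0.574 and 27.4 ± 0.784 FPKM with overlapping libraries. In KO they stood at 65.6 ± 1.58 and 34.0 ± 1.16 FPKM, and GSK3A made up 65.8 ± 1.08% of the pair against 50.3 ± 0.296% in WT (exact two-sided permutation p = 0.1, the smallest possible).

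AXIN1 (chr16:287440-352723), the scaffold of the complex, stood at 84.2, 79.6 and 78.5 CPM in WT and at 97.7, 103 and 100.2 CPM in KO. It was modestly higher in all KO libraries, with a log2 fold change of 0.31 (standard error 0.05, adjusted p = 9.60e-05). AXIN2 (chr17:65528563-65561648), a second scaffold that is itself a target of beta-catenin, stood at 1.42, 1.35 and 2.17 CPM in WT and at 3.99, 4.41 and 2.58 CPM in KO. WT replicate 3 was the highest of WT and KO replicate 3 the lowest of KO, which left a small gap between the groups. The log2 fold change was 1.16 (standard error 0.26, adjusted p = 0.000919). APC and AXIN2 remained the low members of the complex per length, at 6.58 ± 1.30 and 0.935 ± 0.262 FPKM in KO.

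CTNNB1 (chr3:41199505-41240443), which encodes beta-catenin, was the most abundant of the Wnt genes per length, at 119 ± 2.05 FPKM in WT and 131 ± 5.596 FPKM in KO, and was not called. It stood at 456, 438 and 448 CPM in WT and at 397, 420 and 447 CPM in KO. KO replicate 3 lay within WT and the other KO libraries below it. The log2 fold change was -0.09 (standard error 0.06, adjusted p = 0.172). Its sign depended on the scaling: with library size alone it was 0.14 and called higher (adjusted p = 0.0137). Without KO replicate 3 it was called lower with -0.17 (adjusted p = 0.000311). With the GC and length trend removed, limma also called it lower, with -0.20 (adjusted p = 0.0183). RNA levels say nothing of beta-catenin protein, which the pathway controls by degradation.

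Of the TCF/LEF factors, TCF7L1 fell and TCF7, LEF1 and TCF7L2 were called higher. TCF7L1 (chr2:85133392-85310387), known mostly as a repressor, stood at 1.76, 1.61 and 1.98 CPM in WT and at 0.877, 0.685 and 1.01 CPM in KO. No library overlapped, with a log2 fold change of -1.06 (standard error 0.29, adjusted p = 0.00406). TCF7 held 3, 4 and 7 counts in WT and 87, 38 and 13 in KO. It was above WT in every KO library but by very different amounts, with a log2 fold change of 3.19 (standard error 0.60, adjusted p = 0.000224) that came down to 2.56 without KO replicate 1. Its exons overlap on the opposite strand with SKP1, which rose from 117 to 158 CPM. LEF1 rose from 14.2 ± 0.799 to 18.1 ± 1.64 CPM (log2 fold change 0.34, adjusted p = 0.00482). TCF7L2 was called higher, from 25.3 ± 0.876 to 29.2 ± 2.39 CPM (log2 fold change 0.20, adjusted p = 0.0297), a call that 8 of 19 alternatives lost. TCF7L2 and LEF1 stayed first and second per length, with 53.3 ± 1.45% and 41.2 ± 1.90% of the family's FPKM in WT and 51.6 ± 1.75% and 43.8 ± 0.458% in KO.

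**Figure D4:**
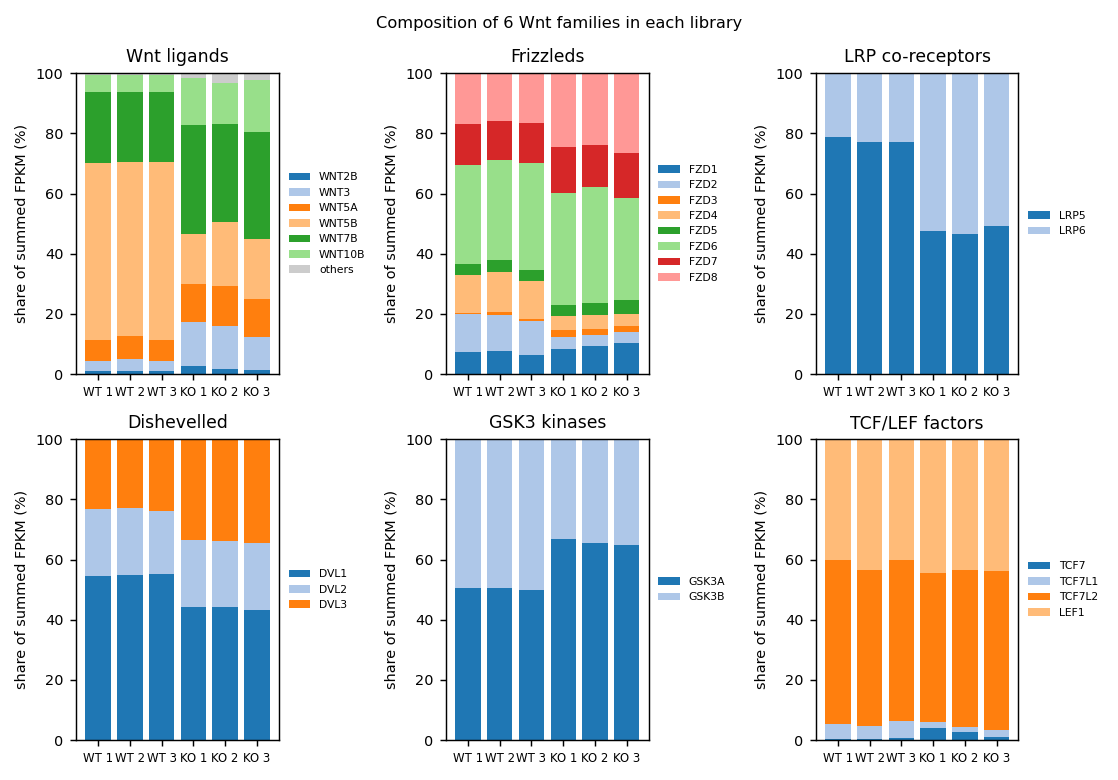
Share of each gene (percent) in the summed FPKM of its family in the 6 libraries; every bar adds to 100%, and ligands under 1% in every library are drawn as others. The 3 libraries of a group look alike, and the shares of WNT5B, LRP5, FZD2, FZD4 and DVL1 are smaller in KO while that of GSK3A is larger.

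Genes of the pathway outside the symbol rule were taken from 3 lists, and their counts are read beside the 40% of all genes that were called higher and the 36.3% called lower. Of 8 tested extracellular regulators, 3 rose and 3 fell, and the median on the log2 scale was -0.19. KREMEN2, a receptor for DKK1 that draws LRP6 into the cell, fell from 11.03 ± 0.466 to 1.71 ± 0.531 CPM (log2 fold change -2.68, adjusted p = 1.08e-08). RECK, which with ADGRA2 lets WNT7A and WNT7B signal, fell from 15.7 ± 1.52 to 5.93 ± 0.296 CPM (log2 fold change -1.40, adjusted p = 3.23e-08). ADGRA2 was called higher, from 11.3 ± 0.535 to 13.8 ± 0.207 CPM (log2 fold change 0.29, adjusted p = 0.0145). KREMEN1 fell as well (-0.31), and TRABD2B, a protease that inactivates Wnt ligands, rose (0.53).

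Of 32 tested genes of beta-catenin turnover and nuclear cofactors, 16 rose, 12 fell and 4 were not called, with a median of 0.21; with scaling by library size alone, 17 rose and 6 fell. The histone acetyltransferases that beta-catenin recruits rose together: CREBBP went from 79.1 ± 3.37 to 254 ± 8.02 CPM (log2 fold change 1.68, adjusted p = 9.55e-13) and EP300 from 96.2 ± 2.57 to 195 ± 16.9 CPM (log2 fold change 1.02, adjusted p = 1.11e-09). CTNNBIP1, an inhibitor that keeps beta-catenin from TCF factors, fell from 38.7 ± 2.91 to 5.87 ± 0.542 CPM (log2 fold change -2.71, adjusted p = 3.30e-12). APC2, the relative of APC, rose from 25.2 ± 1.44 to 53.5 ± 1.92 CPM (log2 fold change 1.09, adjusted p = 1.91e-09).

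Of 37 tested genes of the planar polarity and calcium branches, 8 rose, 19 fell and 10 were not called, with a median of -0.19. With scaling by library size alone, 16 rose and 13 fell. ANKRD6, which rose, passed the filter through KO alone. NFATC4, which fell, passed it through WT alone, so the raw counts of both had to differ. The 4 with the smallest p all fell. They were PRKCA, a calcium-dependent protein kinase C (205 ± 3.22 to 86.0 ± 2.55 CPM, log2 fold change -1.25), the calmodulin kinase subunits CAMK2G (-1.42) and CAMK2D (-0.997), and PRICKLE2, a cytoplasmic polarity protein (-1.26). VANGL2, MAPK10, PLCB1, PLCB4, CAMK2A, NFATC1 and NFATC2 were not tested.

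Beta-catenin targets were read from a pair of lists. Of 9 tested feedback targets, genes by which the signal regulates itself, 5 rose and 4 were not called, beside 40% of all genes called higher, with a median of 0.48, and none was lower by edgeR, by DESeq2 or at an unadjusted p under 0.05; AXIN2, ZNRF3, TCF7 and LEF1 of the 5 are described above. TCF7 passed the filter through KO alone, so its raw counts had to differ. Without it 4 of 8 rose, so the count is not read as a result about the targets. BAMBI, a decoy receptor of the TGF-beta family, was the fifth and rose from 2.76 ± 0.260 to 8.13 ± 0.773 CPM (log2 fold change 1.56, adjusted p = 3.17e-07). Of 30 other reported targets, 15 rose, 11 fell and 4 were not called, with a median of 0.27. These counts stand beside the 40% higher and 36.3% lower of all genes. Among those that rose, CLDN1, FGF18, ABCB1, NOS2 and WISP1 passed the filter through KO alone, so their raw counts had to differ. The counts are not read as a result about the targets. RUNX2, a factor of bone formation, fell from 163 ± 2.31 to 13.2 ± 0.680 CPM (log2 fold change -3.63, adjusted p = 2.14e-15), and PPARD, a lipid-sensing nuclear receptor, from 271 ± 4.55 to 51.3 ± 1.41 CPM (-2.40). CCND1, the cyclin that drives entry into S phase, fell from 2442 ± 22.4 to 1038 ± 73.1 CPM (-1.23). MITF, the melanocyte factor, rose from 12.2 ± 0.924 to 50.2 ± 2.02 CPM (2.04).

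**Figure D5:**
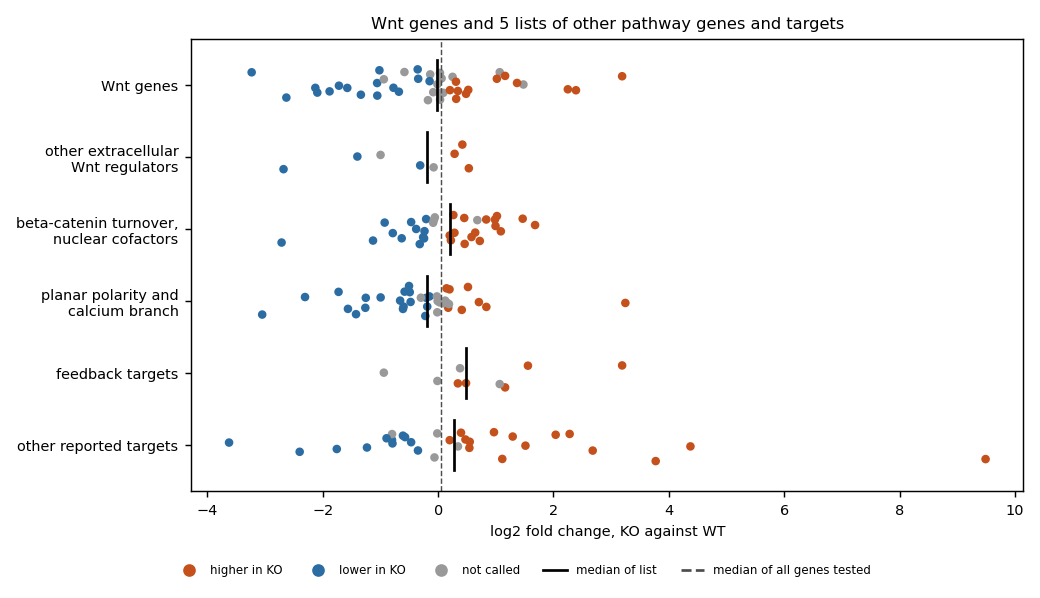
Log2 fold change (KO against WT) of every tested gene in the Wnt set and in 5 lists of other pathway genes and reported targets; points are genes (orange higher, blue lower, grey not called), spread vertically for legibility, with a black line at the median of each list and a dashed line at the median of all genes tested, 0.05. AXIN2 and 6 other Wnt genes appear both in the Wnt set and among the feedback targets, and the point beyond 9 is CLDN1, which had no count in WT, so that its fitted value is not a measured fold.

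Several markers of cell state differed between the groups as well. Of 12 tested mesenchymal markers, 11 fell, beside 36.3% of all genes called lower, and their summed level was 16430 to 17010 CPM in WT and 3974 to 4613 CPM in KO; VIM went from 7873 to 1939 CPM. Of 7 tested epithelial markers, 4 rose, beside 40% of all genes, and 2 fell, beside 36.3%. The epithelial markers summed to 297 to 313 CPM in WT and 184 to 227 CPM in KO. KRT8, the one of these with most counts, fell from 179 to 78.1 CPM (log2 fold change -1.20, adjusted p = 5.38e-08), and CLDN4 fell from 1.88 to 1.05 CPM. The 4 that rose were low in both groups: KRT7 went from 1.48 to 3.40 CPM, ESRP2 from 0.246 to 0.873 CPM, CDH1 from 0.0489 to 0.964 CPM and ESRP1 from 0.0367 to 2.63 CPM. CDH1 and ESRP1 held at most 4 counts in a WT library and passed the filter through KO, and EPCAM was at 0 throughout. Endothelial markers summed to 10.4 to 12.2 CPM in WT and 3.02 to 4.09 CPM in KO, with 1 of 4 higher and 2 lower. Neural markers summed to 143 to 154 CPM in WT and 87.7 to 96.6 CPM in KO, with 1 of 6 higher and 2 lower. The endothelial and neural counts stand beside the same 40% and 36.3% of all genes. With so few genes, neither these nor the epithelial counts are read as results about the markers. Of 3 tested haematopoietic markers none was called by edgeR or DESeq2 and none had an unadjusted p under 0.05, at 10.7 to 12.4 and 11.8 to 12.6 CPM. The part of these shifts in the Wnt results was not tested, and in bulk RNA fewer cells of a type and less RNA per cell cannot be told apart.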

How the data were processed

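Polyadenylated RNA of 3 WT and 3 KO libraries was sequenced. The authors deposited whole-number read counts per gene and FPKM values. Per the submitters' processing notes, fastp, HISAT and hg38 were used; the sources used here give neither counting tool nor annotation nor strand setting. The deposited FPKM equalled the count over library total and a fixed gene length for all 17521 genes with a count (relative tolerance 1e-06), so they are no second measurement.

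Groups came from the sample titles. The Wnt genes, the gene lists and the markers were chosen with earlier results of these data known. Counts were fitted with edgeR 4.0.16 in R 4.3.3 (quasi-likelihood F-test, TMM factors of 0.921 to 1.10, filterByExpr, robust dispersion), with group as sole term and Benjamini-Hochberg adjustment over 13249 genes; the script was tested on simulated data. Values per library were given for Wnt genes called with a fold change of 1 or more in size on the log2 scale and a mean of at least 1 CPM, and for CTNNB1, AXIN1, AXIN2, APC, GSK3B, LRP5 and LRP6 whatever their values. In the lists, up to 4 genes with the smallest p were named. CLDN1, ADGRA2, the single markers, the genes whose exons overlap a Wnt gene and some named counts were chosen after their values were seen. So were the list genes named for passing the filter through 1 group. Family shares used an exact permutation test. Same-numbered libraries did not deviate together (r of -0.0101, 0.0135 and -0.0283), so the numbers were not taken as pairs. Alternatives were other normalizations and filters, DESeq2 1.42.0, limma 3.58.1 (voom, and log2(FPKM + 1) or log2(FPKM + 0.1)), a replicate block, each library left out and, added after the data were seen, a correction for GC content and transcript length.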

Additional observations from a re-analysis of the deposited data

How the results depend on the processing

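Across 19 alternatives, 23 of the 28 called Wnt genes kept their direction and their call. The exceptions were WNT4, FZD1, ROR1, DVL3 and TCF7L2, and 13 of the 15 uncalled genes passed the threshold under some alternative. Genes called higher numbered 12, against 22 with library size alone, 19 on log2(FPKM + 1) and 20 on log2(FPKM + 0.1); the FPKM carry no TMM factor. Leaving out each library gave 11 to 12 higher, 14 to 18 lower and 9687 to 10676 calls among all genes. A replicate block gave 13 higher and 15 lower, with 9986 calls; it lost WNT4 (adjusted p = 0.0521) and called NKD1 (0.0437). In raw-count shares, the differences (KO minus WT, percentage points) were -31.83 for WNT5B, -31.99 for LRP5, -11.7 for DVL1 and 13.51 for GSK3A.

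Signs turned only in genes with small log2 fold changes. With library size alone, log2(FPKM + 1) and log2(FPKM + 0.1), in this order, the values were 0.0829, 0.0582 and 0.0724 for WNT10B, 0.0466, 0.0038 and 0.0238 for ROR2, 0.0755, 0.0720 and 0.0739 for DVL3, 0.1370, 0.1351 and 0.1360 for CTNNB1, and 0.2111, 0.0604 and 0.1737 for RNF43. RNF43 was also 0.0373 with upper-quartile scaling and 0.0001 with a filter of 1 CPM in 3 libraries. With the GC and length trend removed, WLS was -0.0951, FZD5 -0.0524, FZD6 -0.1083, LRP6 -0.1072 and GSK3B -0.0503. Leaving out each library, WLS ranged from -0.0659 to 0.0424, FZD5 from -0.1031 to 0.0801, FZD6 from -0.0192 to 0.0578, FZD7 from -0.0063 to 0.0756, LRP6 from -0.0150 to 0.0630, RNF43 from -0.1112 to 0.0834 and GSK3B from -0.0026 to 0.0996. The cause was not tested. At 1 count for 0.0209 to 0.0315 CPM, depth limits WNT4, WNT9A, DKK1, ROR2, NKD2 and TCF7, with under 25 counts in most libraries.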
